A study of Mus musculus with 4 samples.

Results

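The extracellular matrix of the brain is built largely from a few interlocking protein families, and 10 of their genes are described here in the olfactory bulb of Sp8/Sp9 mutant and control mice. The 10 genes were chosen by name out of the 20032 in the deposited table: the lecticans Acan, Bcan, Ncan and Vcan, the tenascins Tnr and Tnc, the link proteins Hapln1, Hapln2 and Hapln4, and the receptor Ptprz1. Each was found under its symbol. Bulk RNA sequencing was done on whole bulbs at postnatal day 11, with 2 DCKO libraries and 2 control libraries. DCKO mice were Sp8 Flox/Flox and Sp9 Flox/Flox and carried Dlx5/6-CIE, a Cre transgene driven by a Dlx5/6 enhancer. Controls were littermates without Cre; their alleles at Sp8 and Sp9 are not given beyond that. Both groups shared a mixed strain background that combined CD1, 129S6 and C57BL/6J. Because the driver acts in GABAergic precursors and their progeny, the other cells of the bulb keep both genes, and RNA of all cells was measured together. The labels do not say that the replicates of a group came from separate animals, so p-values measure only the spread between these samples.

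Lecticans are chondroitin sulfate proteoglycans: a core protein binds the long sugar polymer hyaluronan at one end and tenascins at the other, and carries chondroitin sulfate chains between. Link proteins (the Hapln family) lock a lectican onto hyaluronan, and tenascin-R, a trimer, ties several lecticans together. These molecules condense into perineuronal nets around some neurons and fill the perinodal and perisynaptic space. Ptprz1 encodes a receptor protein tyrosine phosphatase whose extracellular part bears chondroitin sulfate and whose secreted form is called phosphacan; it binds tenascins, contactin, pleiotrophin and midkine. In the postnatal bulb, tenascin-R is known for guiding neuroblasts that leave the rostral migratory stream and turn toward the outer layers.

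Tnr, Ncan, Bcan and Acan are the 4 genes whose level passed the test in DCKO bulbs, and the 250 bases before their RefSeq starts are shown because these genes were higher together. The sequences are RefSeq's for GRCm38.p6, read 5′ to 3′ on the strand of the gene; the gene coordinates given further on are GENCODE's, whose starts differ from RefSeq's for Ncan, Bcan and Acan. For Bcan and Acan, a stretch just after the RefSeq start was in no GENCODE transcript of the gene. Capitals mark GC boxes, the motif bound by Sp-family factors, searched without overlap as GGGCGG and as its reverse complement CCGCCC. The windows are chr1:159523519-159523768 on the plus strand for Tnr, chr8:70120845-70121094 on the minus strand for Ncan, chr3:88000357-88000606 on the minus strand for Bcan and chr7:79052976-79053225 on the plus strand for Acan.
Tnr: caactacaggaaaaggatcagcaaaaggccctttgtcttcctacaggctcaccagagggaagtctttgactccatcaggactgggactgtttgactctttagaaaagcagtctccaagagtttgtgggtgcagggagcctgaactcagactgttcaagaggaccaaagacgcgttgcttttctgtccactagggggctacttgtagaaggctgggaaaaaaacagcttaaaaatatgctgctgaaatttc
Ncan: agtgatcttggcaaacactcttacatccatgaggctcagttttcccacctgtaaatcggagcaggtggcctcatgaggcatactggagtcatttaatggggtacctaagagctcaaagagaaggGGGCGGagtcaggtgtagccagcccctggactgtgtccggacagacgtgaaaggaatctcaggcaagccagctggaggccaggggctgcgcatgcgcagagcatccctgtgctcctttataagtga
Bcan: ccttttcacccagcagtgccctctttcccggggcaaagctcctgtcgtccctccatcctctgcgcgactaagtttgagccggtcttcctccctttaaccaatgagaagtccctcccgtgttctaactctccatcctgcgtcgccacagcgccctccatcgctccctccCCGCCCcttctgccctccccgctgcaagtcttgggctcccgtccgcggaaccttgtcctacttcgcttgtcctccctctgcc
Acan: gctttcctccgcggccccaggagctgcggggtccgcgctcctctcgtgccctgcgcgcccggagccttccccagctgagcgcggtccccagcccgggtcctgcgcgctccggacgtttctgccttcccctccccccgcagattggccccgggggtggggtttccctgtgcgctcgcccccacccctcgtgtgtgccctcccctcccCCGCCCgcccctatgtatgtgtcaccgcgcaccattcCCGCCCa
The Tnr window held 0 GC boxes and was 46.8% G and C. Counted without overlap, Ncan had 1 box in a window of 54.4% G and C, Bcan had 1 in 62.0% and Acan had 2 in 74.4%. In Acan, a further CCGCCC overlaps the earlier box and is only partly in capitals. Of the 10 genes, 9 had an entry, and a GC box lay in the window of 6 of them: Acan, Bcan, Ncan, Vcan, Tnc and Ptprz1. Tnr, Hapln1 and Hapln2 had none, and Hapln4 was not in the table. Of all 32851 promoters in it, 10756 (32.7%) held a GC box in a window of this length. That share counts promoters and not genes, and a gene can have several, as Tnc did. The match is by letters and says nothing about binding.

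Several facts of the libraries bear on every value. The authors' scaled counts summed to 14632502 to 14899179 in DCKO libraries and 15033308 to 15400982 in control libraries. Sp8 stood at 1.68 and 2.03 FPKM (fragments per transcript length and per mapped fragments of the library) in DCKO bulbs, against 32.0 and 26.7 in control bulbs, and Sp9 at 0.0674 and 0.236, against 24.0 and 30.7. Across genes, log2 values correlated at 0.986 between the DCKO libraries and 0.982 between the controls, against 0.932 to 0.944 between groups. Libraries of the same group differed in tissue markers. Control 1 had summed levels of 262 FPKM for 4 meningeal fibroblast markers and 268 for 4 olfactory sensory neuron markers, against 65.9 and 98.9 in control 2. For 7 myelin markers the summed level was 1022 in DCKO 1 and 559 in DCKO 2, against 579 in control 1 and 784 in control 2. Changes were tested as DCKO minus control with limma on log2(FPKM + 1) in the 13434 genes whose mean level reached 1 FPKM, with Benjamini-Hochberg adjustment over all of them and a threshold of 0.05. Fold changes on this scale understate those of genes at low levels. In bulk tissue, fewer cells of a type and less RNA per cell cannot be told apart. The same holds for rises: FPKM is relative to the library, so loss of some cells can raise the values of the others. A larger share of the cells and more RNA per cell cannot be told apart either.

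Neurocan, aggrecan and brevican transcripts were higher in DCKO bulbs, while versican transcripts overlapped between groups. Per transcript length, Bcan was the most abundant lectican, followed by Ncan, with Vcan and Acan far below. Ncan (chromosome 8, 70093085 to 70120873, minus strand, GRCm38) encodes neurocan, a lectican of the juvenile nervous system. Its level was 94.2 and 107 FPKM in DCKO libraries 1 and 2, against 71.5 and 79.0 FPKM in control libraries 1 and 2. Both DCKO values lay above both control values, with means of 100.5 ± 8.84 FPKM in DCKO and 75.2 ± 5.31 FPKM in control (SD, n = 2 each). Ncan rose by 0.41 on the log2 scale (SE 0.094, 95% interval 0.17 to 0.65, adjusted p = 0.0344).

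Bcan (chromosome 3, 87987531 to 88000230, minus strand) encodes brevican, a lectican of the mature brain made by astrocytes and neurons. It was measured at 133 and 134 FPKM in DCKO bulbs, against 113 and 114 FPKM in control bulbs. Relative to their mean, the replicates of each group lay closer together than those of Ncan, Tnr or Acan: the SD was 0.634 FPKM in DCKO and 0.573 FPKM in control. Bcan rose by 0.24 on the log2 scale, the smallest of the 4 called changes (SE 0.061, 95% interval 0.081 to 0.40, adjusted p = 0.0453).

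Acan (chromosome 7, 79053483 to 79115099, plus strand) encodes aggrecan, the lectican of cartilage and a hallmark of perineuronal nets. Acan had 6.00 and 7.92 FPKM in DCKO libraries, against 4.36 and 4.60 FPKM in control libraries. The controls were close together, and the DCKO libraries, both above them, were further apart. The means were 6.96 ± 1.36 FPKM in DCKO and 4.48 ± 0.174 FPKM in control (SD, n = 2 each), a ratio of 1.55. On the log2 scale Acan rose by 0.53 (95% interval 0.17 to 0.89, adjusted p = 0.0486).

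Vcan (chromosome 13, 89655312 to 89742509, minus strand) encodes versican, which is made by glial precursors and by connective tissue. Its level was 8.98 and 8.58 FPKM in DCKO libraries, against 7.43 and 8.86 FPKM in controls. Control 2 lay between the DCKO libraries, and the difference of 0.10 on the log2 scale did not pass the test (95% interval -0.17 to 0.37, adjusted p = 0.489); without control 1 it was -0.01.

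Bcan and Ncan made up most of the lectican transcripts in every library. Bcan made up 54.9% and 52.1% of the summed lectican FPKM in DCKO libraries, against 57.5% and 55.1% in control libraries. Ncan made up 38.9% and 41.5% in DCKO, against 36.5% and 38.3% in control. Vcan held 3.71% and 3.33% in DCKO and 3.79% and 4.30% in control, and Acan 2.48% and 3.08% in DCKO and 2.22% and 2.23% in control. The sum over the 4 lecticans was 242 and 257 FPKM in DCKO libraries, against 196 and 206 in controls, a ratio of 1.24. With 2 libraries against 2, the exact two-sided permutation test cannot give a p below 0.33, which is the value it gave for this sum.

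**Figure D1:**
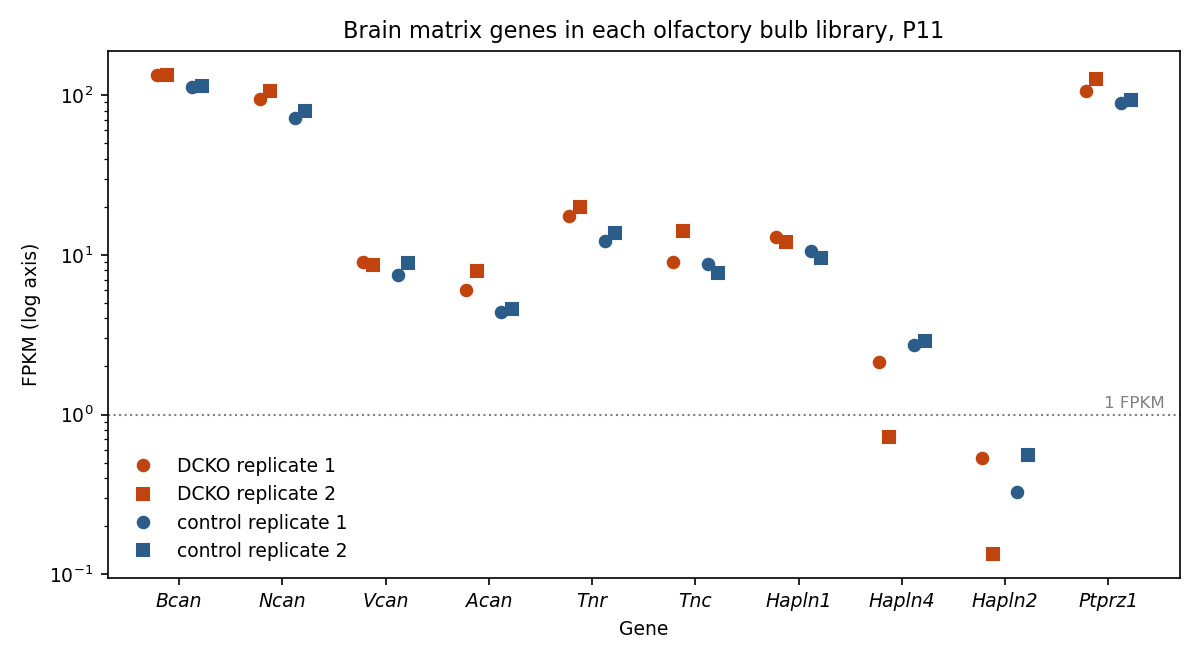
Level of each of the 10 genes in every library, in FPKM on a logarithmic axis, with DCKO libraries left of control libraries (circle, replicate 1; square, replicate 2) and a dotted line at 1 FPKM, the filter on the mean. Tnr, Ncan, Bcan and Acan are higher in both DCKO libraries than in either control, Hapln4 is lower in both, and Vcan overlaps.

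Tenascin-R was higher in DCKO bulbs, with the smallest adjusted p of the 9 genes tested. Tnr (chromosome 1, 159523769 to 159931729, plus strand) encodes this oligodendrocyte and interneuron product that crosslinks lecticans. Tnr had 17.5 and 20.03 FPKM in DCKO libraries, against 12.2 and 13.8 FPKM in control libraries. The groups did not overlap, and the means were 18.7 ± 1.82 FPKM in DCKO and 13.0 ± 1.14 FPKM in control (SD, n = 2 each), a ratio of 1.44. On the log2 scale Tnr rose by 0.50 (SE 0.10, 95% interval 0.23 to 0.76, adjusted p = 0.0276). The annotation places Gm38039 on the opposite strand within Tnr, and the strand setting of the counting is not given in the sources used here.

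Tnc (chromosome 4, 63959785 to 64047015, minus strand) encodes tenascin-C, a hexameric relative of astrocytes, neural stem cells and injured tissue. Tnc had 8.98 and 14.1 FPKM in DCKO libraries, against 8.74 and 7.74 FPKM in control libraries. DCKO 1 was close to the controls and DCKO 2 was far above, so the ratio of means of 1.40 rests on DCKO 2. The difference of 0.41 did not pass the test (95% interval -0.13 to 0.96, adjusted p = 0.198). It was 0.11 without DCKO 2 and 0.71 without DCKO 1, where it passed (adjusted p = 0.0335). Tnr over Tnc was 1.94 and 1.42 in DCKO libraries and 1.39 and 1.78 in control libraries, with overlap.

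None of the link protein genes of the 10 passed the test: 2 were tested, 0 were called, and 1 was below the filter. Hapln1 (chromosome 13, 89539796 to 89611652, plus strand) encodes cartilage link protein, also present in perineuronal nets. Its level was 12.9 and 11.96 FPKM in DCKO libraries, against 10.6 and 9.50 FPKM in control libraries, with no overlap. The difference of 0.29 on the log2 scale missed the threshold (95% interval 0.058 to 0.51, adjusted p = 0.0703), and passed after quantile normalization of the libraries (0.34, adjusted p = 0.0458).

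Hapln4 (chromosome 8, 70083457 to 70090862, plus strand) encodes Bral2, a link protein that partners brevican in nets and at inhibitory synapses. Hapln4 had 2.13 and 0.722 FPKM in DCKO libraries, against 2.74 and 2.89 FPKM in control libraries. It was the one tested gene of the 10 whose DCKO values both lay below both controls. The DCKO libraries differed from each other about as much as the groups did, with means of 1.43 ± 0.997 FPKM in DCKO and 2.81 ± 0.104 FPKM in control (SD, n = 2 each). The difference of -0.71 did not pass (95% interval -1.49 to 0.057, adjusted p = 0.136). It was -0.28 without DCKO 2 and -1.15 without DCKO 1, where it passed (adjusted p = 0.0253). Behind these values lay 108 and 37.2 scaled counts in DCKO libraries, against 139 and 143 in control libraries.

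Hapln2 (chromosome 3, 88021750 to 88027583, minus strand) encodes Bral1, the link protein of the nodes of Ranvier of myelinated axons. Its level of 0.534 and 0.134 FPKM in DCKO libraries and 0.327 and 0.561 FPKM in control libraries was below the filter, so Hapln2 was not tested. These levels stood for 14.7 and 3.63 scaled counts in DCKO and 9.07 and 15.43 in control, and the lowest library was DCKO 2, which was also lowest in the summed myelin markers. With no filter the log2 difference was -0.13 (95% interval -0.64 to 0.38, adjusted p = 0.666).

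Ptprz1 (chromosome 6, 22875502 to 23052916, plus strand) ranked after Bcan as the next most abundant of the 10 genes per transcript length in both groups. It had 106 and 126 FPKM in DCKO libraries, against 89.1 and 93.3 FPKM in control libraries, and the groups did not overlap. The means were 116 ± 13.5 FPKM in DCKO and 91.2 ± 2.94 FPKM in control (SD, n = 2 each). The difference of 0.34 on the log2 scale missed the threshold (95% interval 0.084 to 0.59, adjusted p = 0.0614). It passed after quantile normalization (adjusted p = 0.0435), after median-of-ratios scaling (adjusted p = 0.0456) and without DCKO 1 (adjusted p = 0.0315).

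Of the 9 genes tested, 4 were called higher in DCKO and 0 lower, against 13.0% of all tested genes called higher and 14.3% called lower. Thus 44.4% of the 9 rose, and 5 did not pass. The genes were chosen with earlier results of these data known, so the shares in this paragraph are descriptions and test no enrichment. Without overlap between groups, 7 of 9 lay above the controls in DCKO and 1 below, against 33.9% and 37.6% of all tested genes. The median log2 difference was 0.34 over the 9 genes, with 8 of them positive and a range of -0.71 to 0.53. Over all tested genes the median was -0.02, the quartiles were -0.23 and 0.24, and 48.2% were positive. The sum over the 10 genes was 391 and 430 FPKM in DCKO libraries, against 320 and 334 in control libraries, a ratio of 1.26.

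The 4 calls were close to the threshold and depended on single libraries. Without DCKO 2 none of the 4 passed: adjusted p was 0.0695 for Tnr, 0.0760 for Ncan, 0.0618 for Bcan and 0.0757 for Acan. Leaving out control 1, the library with high meningeal and sensory neuron markers, also left 0 calls, with adjusted p of 0.0934 for Tnr, 0.138 for Ncan, 0.260 for Bcan and 0.131 for Acan. Without control 2 Tnr alone passed (adjusted p = 0.0411), and Ncan, Bcan and Acan had 0.0617, 0.255 and 0.105. Without DCKO 1 Tnr, Ncan and Acan passed (adjusted p = 0.0431, 0.0430 and 0.0295), Bcan did not (0.0645), and Tnc and Ptprz1 came in. Tnr, Ncan, Bcan and Acan stayed positive in each of these fits; the log2 difference of Tnr was 0.40 without DCKO 2 and 0.41 without control 1.

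**Figure D2:**
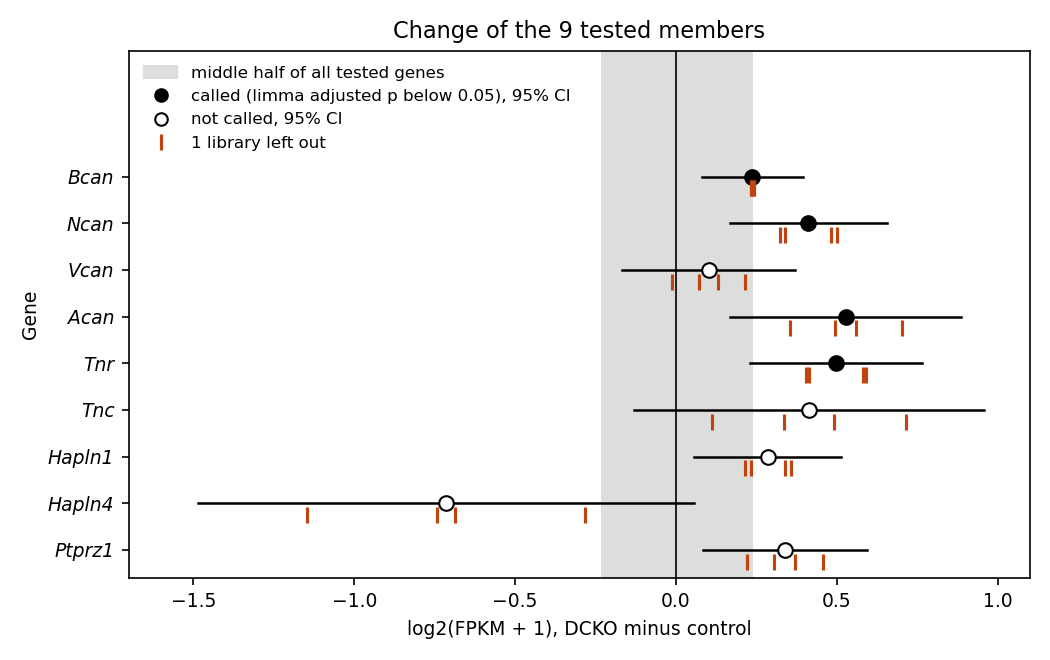
Log2 difference, DCKO minus control, of the 9 tested genes with its 95% interval (circles, filled where called), the values with 1 library left out (ticks) and the middle 50% of all tested genes (grey). The intervals of Tnr, Ncan, Bcan, Acan, Hapln1 and Ptprz1 lie above 0, and those of Vcan, Tnc and Hapln4 include 0.

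Each link protein gene neighbours a lectican gene, with 0 protein-coding genes between the pair: Hapln1 and Vcan 43659 bases apart, Hapln2 and Bcan 21519, Hapln4 and Ncan 2222, and Hapln3 and Acan 2. The gene pairs point in opposite directions, except Hapln2 and Bcan, which share a strand. Hapln4 over Ncan was 0.0226 and 0.00677 in DCKO libraries, against 0.0383 and 0.0365 in control libraries, a log2 difference of -1.60 with no overlap. Without DCKO 2 that difference was -0.73, and without DCKO 1 it was -2.47.

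Hapln1 over Vcan overlapped, at 1.44 and 1.39 in DCKO libraries and 1.42 and 1.07 in control libraries. Hapln2 over Bcan overlapped too, at 0.00401 and 0.00100 in DCKO and 0.00290 and 0.00494 in control. Hapln3, the link protein gene outside the 10, was added to these ratios after its values were seen. Hapln3 over Acan was 1.97 and 1.37 in DCKO libraries, against 1.30 and 1.17 in control libraries. Within the lecticans, Acan over Vcan was 0.668 and 0.923 in DCKO, against 0.587 and 0.520 in control, and Bcan over Ncan was 1.41 and 1.26 in DCKO, against 1.58 and 1.44 in control. The exact permutation test of each ratio whose groups did not overlap gave 0.33, the smallest p that 2 libraries against 2 allow; it gave 0.667 for Tnr over Tnc and for Hapln1 over Vcan.

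**Figure D3:**
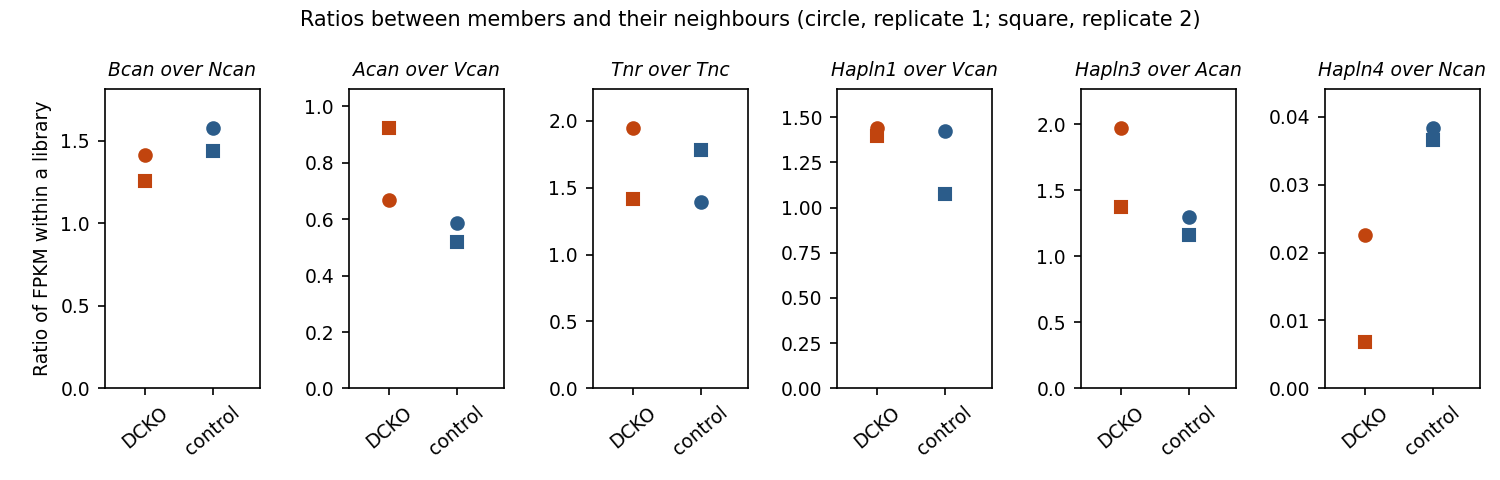
Ratios of FPKM between 6 gene pairs in every library on linear axes that start at 0, one panel a pair, DCKO left of control (circle, replicate 1; square, replicate 2). Hapln4 over Ncan and Bcan over Ncan are lower in both DCKO libraries than in either control, Acan over Vcan and Hapln3 over Acan are higher, and Tnr over Tnc and Hapln1 over Vcan overlap.

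Tnr's profile over the 4 libraries was most like those of Syt9, Mitf and Bend4, among 9615 genes whose mean reached 5 FPKM. Likeness was measured as the root-mean-square difference of centred log2(FPKM + 1), which was 0.00691 for Syt9, 0.0199 for Mitf and 0.0227 for Bend4. Syt9, a synaptotagmin, had 18.7 and 21.4 FPKM in DCKO libraries, against 12.9 and 14.8 FPKM in control libraries. Of the other genes of the 10, Ncan was nearest to Tnr at 0.0441, the 28th of all. Acan followed at 0.0693, the 89th, and Ptprz1 at 0.0889, the 194th. Vcan was furthest of those compared, at 0.218, and Hapln2 and Hapln4 were below 5 FPKM and not compared. With 4 values a gene, close matches among so many genes can arise by chance, so likeness is a description only.

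The wider families and the enzymes around these proteins were read from 5 lists of 69 genes, of which 67 were in the table and 60 were tested. The plot of pathway genes shows them all. In them 18 genes rose and 9 fell, with a median log2 difference of 0.15. That is 30.0% and 15.0% of the 60, against the 13.0% called higher and 14.3% called lower among all tested genes, so the share that fell was near the background. The lists too were chosen with earlier results of these data known, so these shares are descriptions and test no enrichment. Among the 5 other family members, Hapln3 (chromosome 7, 79115102 to 79131018, minus strand) rose. Hapln3 had 11.8 and 10.9 FPKM in DCKO libraries, against 5.65 and 5.36 FPKM in control libraries. The ratio was 2.06 and the log2 difference 0.92 (adjusted p = 0.00411), past the threshold in every alternative run and with each library left out. Cspg5, which encodes the neuronal proteoglycan neuroglycan C, fell to 56.0 and 55.1 FPKM in DCKO, against 71.4 and 75.2 FPKM in control (log2 difference -0.39, adjusted p = 0.0157). Without control 1 or control 2 the call of Cspg5 was lost (adjusted p = 0.0530 and 0.0989). Cspg4, the NG2 proteoglycan of oligodendrocyte precursors, did not pass, at 3.22 and 2.59 FPKM in DCKO and 2.73 and 2.94 FPKM in control. The tenascins Tnn and Tnxb were below the filter: Tnn had 0.0177 and 0.0911 FPKM in DCKO and 0.229 and 0.0982 in control, and Tnxb 0.626 and 0.483 in DCKO and 0.402 and 0.436 in control.

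Of the 10 hyaluronan genes, 9 were in the table, 6 were tested, 1 rose, 1 fell and 4 did not pass, with a median of 0.16. Tmem2, which encodes a cell-surface hyaluronidase, fell to 4.03 and 5.21 FPKM in DCKO, against 10.1 and 10.6 FPKM in control (log2 difference -1.02, adjusted p = 0.00824). Cd44, the hyaluronan receptor of astrocytes and immune cells, rose to 1.62 and 1.49 FPKM in DCKO, against 0.783 and 0.593 FPKM in control (log2 difference 0.60, adjusted p = 0.0425). Its call was lost without DCKO 1, DCKO 2 or control 2 (adjusted p = 0.111, 0.0832 and 0.118). The hyaluronan synthases Has1 and Has2 and the hyaluronidase Hyal3 were below the filter.

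Chondroitin sulfate enzymes moved in both directions: of 21, 20 were tested, 6 rose, 4 fell and 10 did not pass, with a median of 0.11. Chsy3, a chondroitin synthase that extends the chain, fell to 0.499 and 0.458 FPKM in DCKO, against 3.97 and 3.40 FPKM in control (log2 difference -1.66, adjusted p = 0.00315). Ust, which sulfates uronic acid in the chain, rose to 12.9 and 13.8 FPKM in DCKO, against 6.87 and 7.31 FPKM in control (0.83, adjusted p = 0.00468). Xylt1, which adds the first sugar to the core protein, rose to 19.1 and 15.9 FPKM in DCKO, against 9.94 and 9.85 FPKM in control (0.76, adjusted p = 0.0106). Chst11, a 4-O-sulfotransferase, fell to 9.60 and 7.95 FPKM in DCKO, against 13.1 and 14.3 FPKM in control (-0.59, adjusted p = 0.0218); without control 2 its adjusted p was 0.0767. The count was 2 higher and 2 lower without control 1, and 3 higher and 1 lower without control 2.

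Among lectican-cleaving proteases and their inhibitors, 12 of 14 were tested, 2 rose, 3 fell and 7 did not pass, with a median of -0.15, which was 0.34 without control 1. Timp2 and Timp3, which encode inhibitors, rose. Timp2 had 254 and 210 FPKM in DCKO, against 92.8 and 97.5 FPKM in control (log2 difference 1.27, adjusted p = 0.00366), and Timp3, whose product inhibits ADAMTS proteases, had 61.8 and 52.3 FPKM in DCKO, against 34.6 and 32.0 FPKM in control (0.76, adjusted p = 0.0104). Adamts15, Adamts5 and Adamts20, which encode ADAMTS proteases, fell. Adamts15 had 1.65 and 2.44 FPKM in DCKO, against 7.38 and 7.50 FPKM in control (-1.48, adjusted p = 0.00542), and Adamts5, an aggrecanase, had 1.07 and 1.05 FPKM in DCKO, against 2.87 and 2.90 FPKM in control (-0.92, adjusted p = 0.0089). Adamts20 changed by -0.49 (adjusted p = 0.0241), and lost its call without DCKO 1, control 1 or control 2 (adjusted p = 0.0600, 0.101 and 0.105). Other members of the same kinds had differences of the opposite sign that did not pass: 0.47 for Adamts9, 0.29 for Adamts1 and -0.35 for Timp4. Timp2, Timp3, Adamts15 and Adamts5 kept their calls with each library left out.

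Of the 19 ligands, partners and receptors, all were tested, 8 rose, 0 fell and 11 did not pass, with a median of 0.31. Rtn4r, the Nogo receptor that also binds chondroitin sulfate, rose to 23.2 and 24.9 FPKM in DCKO, against 13.1 and 12.7 FPKM in control (log2 difference 0.85, adjusted p = 0.00346). Itgb1, a subunit of tenascin-binding integrins, rose to 43.9 and 48.6 FPKM in DCKO, against 31.1 and 29.9 FPKM in control (0.58, adjusted p = 0.00987). Egfr, the epidermal growth factor receptor, rose to 4.82 and 5.85 FPKM in DCKO, against 3.06 and 2.69 FPKM in control (0.71, adjusted p = 0.0189, and 0.0626 without control 2). Mdk, which encodes the Ptprz1 ligand midkine, rose to 56.9 and 76.6 FPKM in DCKO, against 44.9 and 37.0 FPKM in control (0.68, adjusted p = 0.0430, and 0.0891 without DCKO 2 and 0.0978 without control 2). The count in this list was 4 without control 1 and 3 without control 2.

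**Figure D4:**
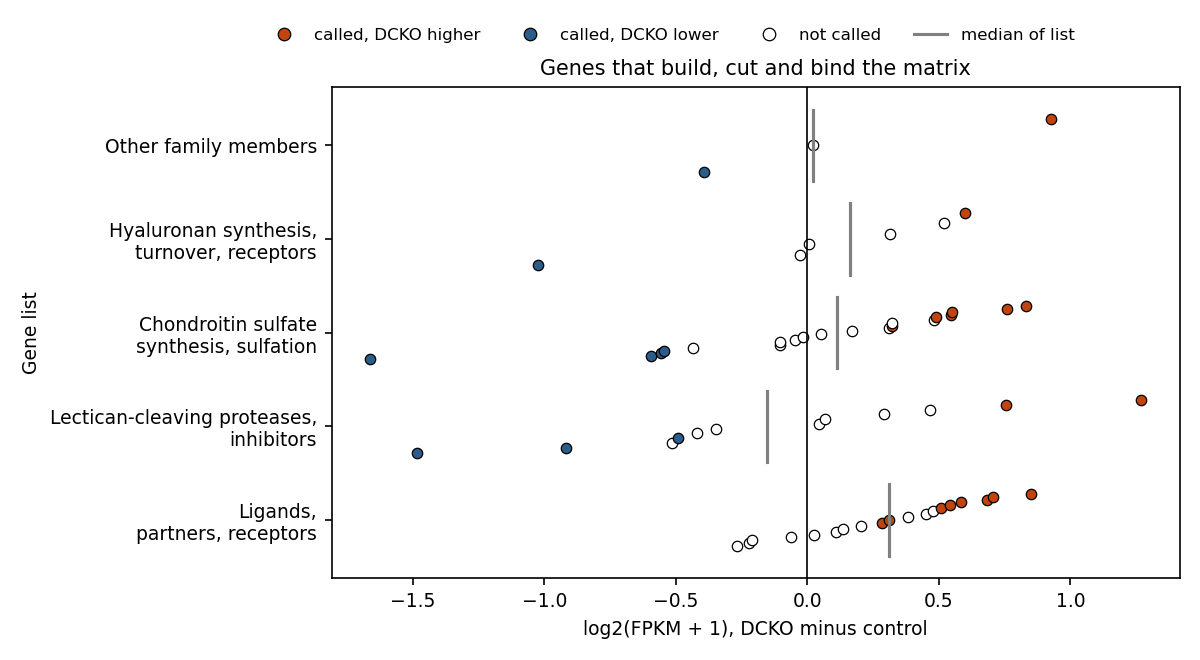
Log2 difference, DCKO minus control, of every tested gene of the 5 lists, one row of points per list, with called genes filled and a grey line at the median of the list. The ligands, partners and receptors hold 8 higher and 0 lower calls, and the other 4 lists hold calls in both directions.

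Markers of several cell types of the bulb also differed between the groups. Astrocyte markers were higher in DCKO: of 9 tested, 6 rose and 0 fell, with a median log2 difference of 0.67 and a summed level of 1318 and 1141 FPKM in DCKO libraries, against 718 and 728 in control libraries. Gfap, the astrocyte intermediate filament, had 317 and 246 FPKM in DCKO, against 77.4 and 71.8 FPKM in control, and Aqp4, the astrocyte water channel, had 74.2 and 95.6 FPKM in DCKO, against 38.7 and 39.8 FPKM in control. All 7 bulb interneuron markers fell, with a median of -2.20 and a summed level of 81.9 and 134 FPKM in DCKO, against 611 and 561 in control. Slc32a1, the vesicular GABA transporter, had 11.7 and 15.5 FPKM in DCKO, against 109.6 and 112 FPKM in control. All 6 mitral and tufted cell markers rose, with a median of 1.19 and a summed level of 1137 and 1020 FPKM in DCKO, against 502 and 540 in control. Of 4 neuroblast markers, 3 fell, and their summed level was 51.5 and 81.6 FPKM in DCKO, against 165 and 172 in control.

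With all 4 libraries, markers of the oligodendrocyte lineage and the meninges did not pass, and those of 3 further cell types rose in part or whole. Of 6 oligodendrocyte precursor markers, 0 passed, with a summed level of 206 and 159 FPKM in DCKO, against 147 and 169 in control. Of 7 myelin markers, 0 passed, with 1022 and 559 FPKM in DCKO, against 579 and 784 in control. All 4 olfactory ensheathing cell markers rose (2914 and 3568 FPKM in DCKO, against 2102 and 2139 in control), as did 3 of 5 microglial markers (63.3 and 66.8 against 51.9 and 50.1) and 1 of 4 endothelial markers (145 and 145 against 113 and 109). With a library left out, 5 to 8 astrocyte, 2 to 4 ensheathing cell, 0 to 3 microglial and 0 to 2 endothelial markers rose, 2 to 4 neuroblast markers fell, and the counts of bulb interneuron and of mitral and tufted cell markers did not change. Lists with 0 calls moved as well: 3 of 4 meningeal markers rose without control 1 and 2 fell without control 2, 1 of 4 sensory neuron markers rose without control 1 and 3 fell without control 2, and 2 of 7 myelin markers rose without DCKO 2 and 1 fell without DCKO 1. Of 4 meningeal markers 0 passed, with 124 and 157 FPKM in DCKO, against 262 and 65.9 in control, and of 4 olfactory sensory neuron markers 0 passed, with 186 and 148 FPKM in DCKO, against 268 and 98.9 in control. Striatum and cerebral cortex markers would show neighbouring tissue. Of 3 striatal markers tested, 1 rose and 1 fell, and 0 of 2 cortical markers passed. The summed striatal level was 71.3 and 56.9 FPKM in DCKO, against 25.1 and 23.1 in control. Most of that sum was Ppp1r1b, which rose, at 66.8 and 52.8 FPKM in DCKO, against 18.6 and 17.3 in control. Adora2a fell, at 2.91 and 2.79 FPKM in DCKO, against 3.99 and 4.65 in control, a call lost on the scaled counts. Drd2 did not pass, and Drd1a was below the filter. No marker was at 0 in any library. The part of these markers in the levels of Tnr, the lecticans and Ptprz1 was not tested.

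**Figure D5:**
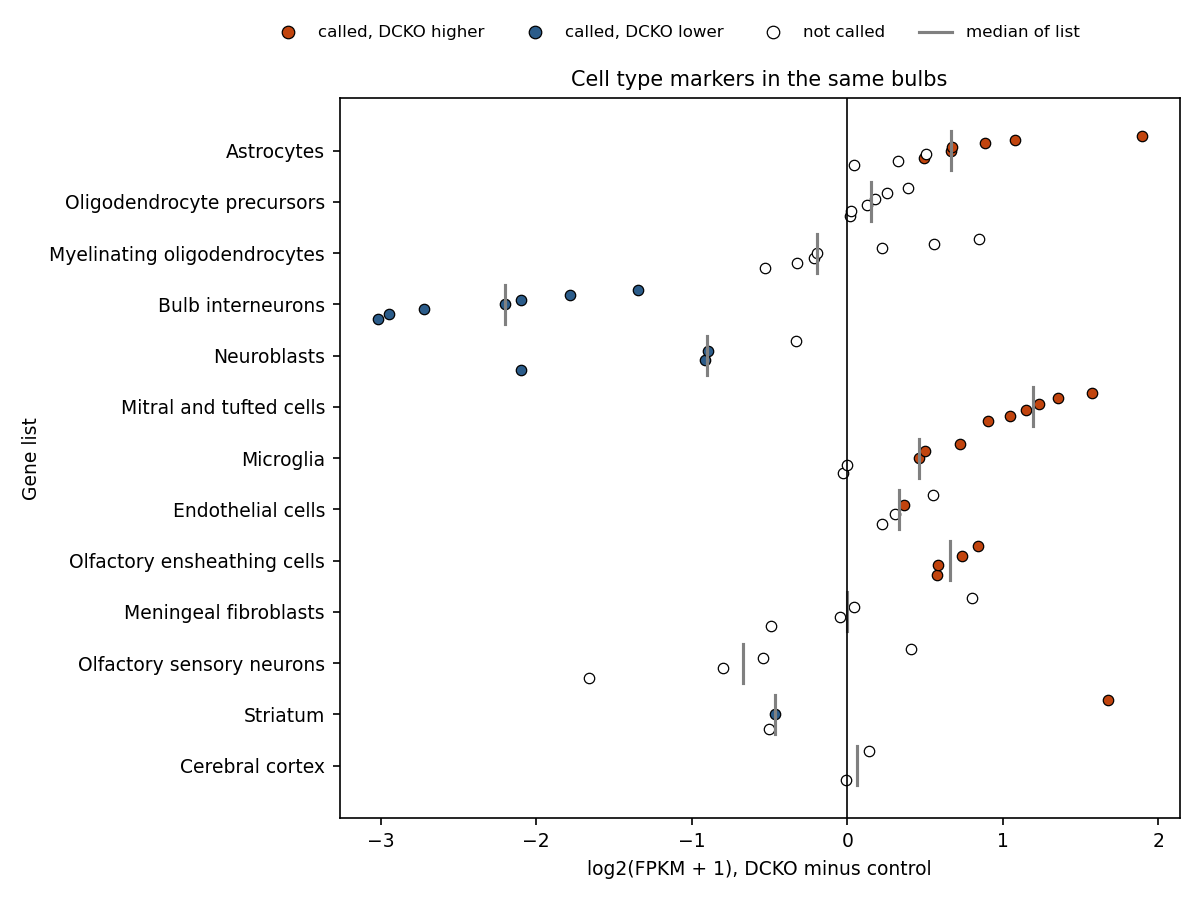
Log2 difference, DCKO minus control, of every tested marker gene, one row of points per cell type or region, with called genes filled and a grey line at the median of the list. All 7 bulb interneuron markers lie below 0, all 6 mitral and tufted cell markers and all 4 ensheathing cell markers lie above it, and the astrocyte median is 0.67.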

How the data were processed

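RNA of whole olfactory bulbs was sequenced in 2 DCKO and 2 control libraries. Per the submitters' processing notes, the authors used TopHat and Cufflinks 2.1.1 with GRCm38.p4. For the annotation, the strand setting and the treatment of shared reads, the sources used here give nothing. Values are deposited as FPKM per gene and library, per the file headers, a unit scaled by transcript length and mapped fragments. The columns headed count are used as a signal that the authors scaled: 98.5% to 98.8% of values up to 500 are whole multiples, to within 0.05, of one step per library (0.908 to 1.008), so no count model was applied. All columns matched a sample (0 unmapped).

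Log2(FPKM + 1) was compared as DCKO minus control by limma 3.58.1 (R 4.3.3), whose empirical Bayes step used an intensity trend. Genes entered where their mean reached 1 FPKM, and tests were two-sided at a Benjamini-Hochberg adjusted p of 0.05. The fit was run on simulated data drawn from its own fitted variances, with changes larger than those called among the 10 members. That run therefore does not test the calls made here. The members and lists were chosen with earlier results of these data known. Named are all 10 members, 5 related genes, up to 4 called genes of largest change per list and the 3 genes most like Tnr in profile; others were named after their values were seen. Coordinates come from GENCODE M21 (GRCm38). Alternatives covered pseudocount, filter, scaling, variance trend, scaled counts, a replicate block and each library left out. No intervals from counting were computed, since the depth behind FPKM is not given.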

Additional observations from a re-analysis of the deposited data

How the results depend on the processing

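Of the 10 genes, 4 were called higher with limma, but 0 with no filter, 1 with no intensity trend and 0 to 5 with a library left out; calls lower were 0, or 0 to 1 with a library left out. Over all tested genes, 1747 were higher and 1926 lower, and leaving out a library gave 806 to 1384 higher and 1030 to 1875 lower. In the 5 lists 18 genes were higher and 9 lower; the replicate block gave 10 higher, a mean of at least 5 FPKM gave 5 lower, and leaving out a library gave 9 to 13 higher and 5 to 9 lower. With the replicate block, 1312 tested genes were higher and 1418 lower; Bcan alone of the 4 lost its call (adjusted p = 0.110), and so did Cd44 (0.0873), Mdk (0.0602), Xylt2 (0.0612), Chsy1 (0.0659), Chst3 (0.0507), Dsel (0.0655), Adamts20 (0.0553), Ptn (0.0576), Ptprs (0.0925) and Scn2b (0.0663). Same-numbered libraries did not deviate together (correlation -0.0211), so the numbers were not taken to pair them. Quantile normalization gave 1997 higher and 1755 lower, and TPM 1699 and 2109. Vcan changed sign with a library left out, between -0.0113 and 0.2147, and Cspg4 did so after quantile normalization (-0.0010) and with a library left out, between -0.0951 and 0.1409. Among named single genes, 413 values under other settings and 118 with a library left out kept their direction and their side of the threshold, while 33 and 60 dropped below it. The planned count tests were not run, since the deposited count columns are scaled and were not taken as raw reads. Leaving out 1 library assumes that the lone one varies as the other pair does. Depth limits Hapln2 and Hapln4 most.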

Other observations

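The remaining called chondroitin sulfate enzymes are named here after their values were seen. Xylt2, a xylosyltransferase that starts the chain, rose to 17.3 and 17.9 FPKM in DCKO libraries, against 14.1 and 13.7 FPKM in control libraries (log2 difference 0.32, adjusted p = 0.0283 with limma). Of enzymes that modify the chain, those that rose beside Ust were Chst3 (3.60 and 4.17 FPKM in DCKO, against 2.29 and 2.38 FPKM in control), Chst15 (15.0 and 13.0 FPKM in DCKO, against 8.98 and 9.47 FPKM in control) and Dsel (3.53 and 3.38 FPKM in DCKO, against 2.23 and 2.11 FPKM in control). Csgalnact1 and Chsy1, which begin and extend the chondroitin backbone, fell: Csgalnact1 had 3.80 and 4.95 FPKM in DCKO, against 6.79 and 6.95 FPKM in control (-0.56, adjusted p = 0.0344), and Chsy1 had 4.74 and 6.16 FPKM in DCKO, against 8.88 and 7.85 FPKM in control (-0.54, adjusted p = 0.0436). Members of these steps that did not pass had log2 differences of 0.05 for Csgalnact2, -0.02 for Chpf and 0.17 for Chpf2, which serve the backbone, and of -0.44 for Chst12, 0.48 for Chst7, 0.31 for Chst14 and 0.32 for Dse, which modify the chain. Xylt2 and Dsel lost their calls with any 1 library left out, Chsy1 and Csgalnact1 without DCKO 1, control 1 or control 2, Chst3 without DCKO 2, control 1 or control 2, and Chst15 without control 1.

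Ptn, which encodes the Ptprz1 ligand pleiotrophin, was among the most abundant genes of the lists, at 326 and 407 FPKM in DCKO libraries, against 260 and 240 FPKM in control libraries (log2 difference 0.54, adjusted p = 0.0365 with limma). Its call was lost without control 1 or control 2 (adjusted p = 0.0723 and 0.135). Scn2b, which encodes a sodium channel subunit that binds tenascin-R, rose as well: it had 17.1 and 16.7 FPKM in DCKO, against 13.3 and 13.6 FPKM in control (0.31, adjusted p = 0.0305). Scn2b lost its call without DCKO 1, control 1 or control 2.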
